A study of Homo sapiens with 22 samples.

Results

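RUNX1, RUNX1T1 and their closest relatives were examined in Kasumi-1, an established line of human acute myeloid leukaemia cells whose t(8;21) translocation joins RUNX1 to RUNX1T1. The 7 genes were chosen by symbol: the fusion partners, the RUNX paralogues RUNX2 and RUNX3, the shared partner CBFB, and the RUNX1T1 paralogues CBFA2T2 and CBFA2T3. Each symbol matched 1 of the 48162 gene IDs in the RNA-seq count table, and all 7 were among the 15834 genes that passed the filter on low counts. The libraries were 4 of Kasumi-1 cells carrying a lentiviral control shRNA, 4 carrying shRNA 1 against FIP1L1 and 4 carrying shRNA 2 against FIP1L1, all kept in RPMI with serum and selected with puromycin. FIP1L1 is a subunit of the complex that recognises the poly(A) signal of pre-mRNAs. All groups are 1 cell line and carry the fusion. The labels number the replicates and do not say whether each was transduced on its own, so the p-values below measure only the spread among these libraries, which may be technical.

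RUNX proteins are the DNA-binding subunits of core binding factor, and CBFB is the subunit that binds no DNA itself but strengthens the grip of RUNX proteins on their sites. RUNX1 is required for the first definitive blood stem cells and later shapes myeloid, lymphoid and platelet lineages. RUNX1T1, also called ETO or MTG8, and its relatives CBFA2T2 and CBFA2T3 are corepressors that bridge DNA-bound factors to histone deacetylases. The fusion keeps the DNA-binding Runt domain of RUNX1 and nearly all of RUNX1T1, and it is transcribed from the RUNX1 promoter. Gene counts do not separate the fusion transcript from those of the intact genes: reads over the 5' part of RUNX1 can come from either, and so can reads over RUNX1T1.

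With shRNA 1, read levels of RUNX1, RUNX1T1, RUNX2, RUNX3 and CBFB fell, that of CBFA2T2 rose, and CBFA2T3 did not pass the test. Poly(A) sites were not analysed, so any part of altered transcript ends in these read levels was not tested. With shRNA 2, RUNX1T1 fell and the other 6 did not pass. Groups that did not overlap in CPM were seen for 6 of the 7 with shRNA 1 and 3 of the 7 with shRNA 2, against 48.3% and 50.2% of all tested genes. Over all tested genes 57.3% were called with shRNA 1 and 50.0% with shRNA 2, so 6 of 7 and 1 of 7 are read against those shares. Of all tested genes, 28.7% were called lower with shRNA 1 and 25.3% with shRNA 2, where the family had 5 and 1. The median log2 change of the 7 genes was -0.64 with shRNA 1 and -0.02 with shRNA 2, where all tested genes had 0.02 and 0.00. Levels are read counts scaled for the size of the library (CPM), changes are log2 with the standard error of the fit, and a gene was called at an adjusted p below 0.05 in edgeR's quasi-likelihood test with Benjamini-Hochberg adjustment over all tested genes. Both comparisons against control use the same 4 control libraries. In bulk RNA, fewer cells of a kind and less RNA per cell cannot be told apart.

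Library totals ran from 12236937 to 20388437 counts, and the 7 genes had between 133 counts in a library (CBFA2T3) and 7254 (RUNX1). FIP1L1, the targeted gene, stood at 42.2, 38.9, 44.1 and 40.2 CPM in the control libraries, at 14.1, 14.7, 15.1 and 17.6 with shRNA 1 and at 20.2, 20.2, 19.1 and 18.7 with shRNA 2. That is 37.1% of control with shRNA 1 (95% confidence interval 32.3 to 42.8) and 47.4% with shRNA 2 (41.2 to 54.4), with no overlap between any of the groups. Of the myeloid progenitor markers, KIT was at 1368 to 1510 CPM in the control, 1068 to 1359 with shRNA 1 and 1400 to 1491 with shRNA 2. CD38 was low, at 2.31 to 4.09, 2.74 to 3.97 and 1.13 to 2.79 CPM. The markers moved in different directions. In the same order of groups, CD34 averaged 261, 51.8 and 178 CPM and FLT3 30.1, 13.4 and 22.8. PTPRC averaged 76.2, 128 and 93.8 CPM and ANPEP 211, 145 and 410. CD33, another of them, was at 61.8 to 80.3 CPM in the control, 54.4 to 68.1 with shRNA 1 and 177 to 190 with shRNA 2. All 8 were tested, and their summed level was 17422 to 19565 CPM in the control, 7815 to 10008 with shRNA 1 and 10688 to 13240 with shRNA 2, most of it MPO. Summed lymphoid markers (3 of 6 tested, MS4A1 at 0) were at 6.01 to 9.82, 2.91 to 4.46 and 15.6 to 19.2 CPM in these groups. Erythroid markers (1 of 5 tested, HBB at 0) were at 1.12 to 3.66, 3.14 to 4.38 and 1.39 to 2.25. Megakaryocyte markers (2 of 4 tested, PF4 at 0) summed to 16.3 to 24.8, 16.9 to 20.2 and 16 to 18.6, and monocyte markers (2 of 4 tested, FCGR3A at 0) to 9.19 to 17.2, 10.7 to 17.0 and 11.5 to 23.4. Among stromal and epithelial markers COL1A2 was at 0 and KRT18 below 1 CPM, while EPCAM reached 122 to 150 CPM in the control, 38.2 to 47.8 with shRNA 1 and 135 to 144 with shRNA 2. The part of these marker levels in the results below was not tested.

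RUNX1 (ENSG00000159216, GRCh38 chromosome 21, 34787801 to 36004667, minus strand) had the highest CPM of the family in all 3 groups. It stood at 364, 385, 379 and 407 CPM in the control, at 202, 179, 176 and 176 CPM with shRNA 1, and at 345, 358, 386 and 382 CPM with shRNA 2. Every shRNA 1 library lay below every control library, while the shRNA 2 and control libraries overlapped. With shRNA 1 the RUNX1 level was 47.8% of control (95% interval 43.5 to 52.4), a log2 change of -1.07 (SE 0.06, edgeR adjusted p = 2.4e-12). With shRNA 2 the log2 difference was -0.06 (SE 0.06, 95% interval -0.19 to 0.07, edgeR adjusted p = 0.441), an interval that does not reach the change seen with shRNA 1. The direct comparison put RUNX1 higher with shRNA 2 than with shRNA 1 by 1.00 (SE 0.06, edgeR adjusted p = 6.38e-12). Both shRNAs lowered FIP1L1, and RUNX1 differed between them.

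RUNX1T1 (ENSG00000079102, GRCh38 chromosome 8, 91954967 to 92103286, minus strand), the corepressor in the fusion, was the member that fell with both shRNAs, as 12.8% of all tested genes did. Control libraries held 189, 191, 168 and 195 CPM, shRNA 1 libraries 81.5, 71.0, 78.1 and 65.8 CPM, and shRNA 2 libraries 149, 141, 139 and 138 CPM. No library of any group reached the range of another group, with shRNA 2 between the other groups. With shRNA 1 the change was -1.32 (SE 0.07, edgeR adjusted p = 3.98e-13), leaving 40.0% of control (95% interval 36.0 to 44.3). With shRNA 2 it was -0.39 (SE 0.07, edgeR adjusted p = 7.59e-05), leaving 76.4% (95% interval 69.1 to 84.6). Set against shRNA 1, the shRNA 2 libraries held more, by 0.94 (SE 0.07, edgeR adjusted p = 1.31e-10).

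**Figure D1:**
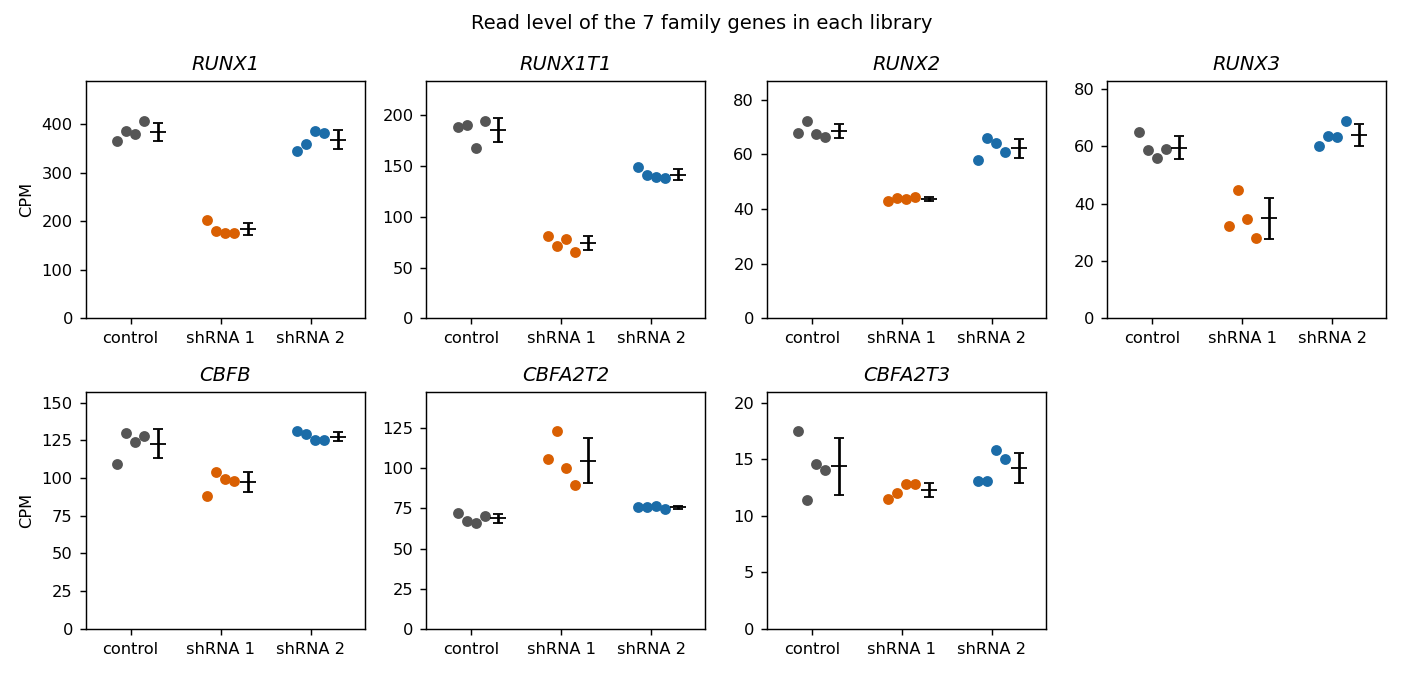
Level in CPM (vertical axes, from 0) of each family gene in the 4 libraries of the control, shRNA 1 and shRNA 2 groups; dots are libraries, in replicate order, and the bar beside them is the mean with 1 SD. RUNX1 at 176 to 202 CPM with shRNA 1 stands below the 345 to 407 CPM of the other groups, and RUNX1T1 falls into 3 separate ranges.

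The other RUNX genes were expressed at lower levels and also fell with shRNA 1. RUNX2 (ENSG00000124813, GRCh38 chromosome 6, 45328157 to 45664349, plus strand), best known as the master factor of bone formation, was at 68.0, 72.4, 67.3 and 66.5 CPM in the control, 42.8, 44.2, 43.8 and 44.5 CPM with shRNA 1, and 58.1, 66.0, 64.2 and 60.8 CPM with shRNA 2. The shRNA 1 libraries were tightly grouped and far below the rest, and all 4 shRNA 2 libraries lay just under the lowest control library. RUNX2 fell by 0.64 with shRNA 1 (SE 0.07, edgeR adjusted p = 3.75e-08), to 64.0% of control. With shRNA 2 the difference of -0.14 (SE 0.07, 95% interval -0.28 to 0.0046) did not pass (edgeR adjusted p = 0.101), although the groups did not overlap. Between the shRNAs RUNX2 was higher with shRNA 2 by 0.51 (SE 0.07, edgeR adjusted p = 1.35e-06).

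RUNX3 (ENSG00000020633, GRCh38 chromosome 1, 24899511 to 24965121, minus strand), a factor of T cell and natural killer cell development, was at 65.0, 58.6, 55.8 and 58.9 CPM in the control, 32.1, 44.8, 34.6 and 28.0 CPM with shRNA 1, and 60.1, 63.6, 63.1 and 69.0 CPM with shRNA 2. Its shRNA 1 libraries were scattered and still below every library of the other groups. RUNX3 fell by 0.77 with shRNA 1 (SE 0.11, edgeR adjusted p = 1.66e-06), to 58.7% of control (95% interval 50.5 to 68.4). The difference with shRNA 2 was 0.10 (SE 0.10, 95% interval -0.11 to 0.32, edgeR adjusted p = 0.438). RUNX3 was higher with shRNA 2 than with shRNA 1 by 0.87 (SE 0.10, edgeR adjusted p = 2.45e-07). The order of the shRNA 1 changes was therefore RUNX1T1, RUNX1, RUNX3 and RUNX2, and the 95% intervals of RUNX3 and RUNX2 overlapped, as did those of RUNX1T1 and RUNX1 and those of RUNX1 and RUNX3.

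RUNX genes are each transcribed from a distal and a proximal promoter, and RUNX proteins bind the 6-base motif ACCACA, which reads TGTGGT on the other strand. Since the RUNX genes fell together with shRNA 1, their promoter sequences are given here from RefSeq windows (build GRCh38.p14) of 250 bases before to 50 after a start. Windows were found for 5 of the 7 genes, 7 windows in all; CBFB was not in the table, and that of RUNX1T1 was not used. The motif on either strand was in 2 of the 7 windows, the distal ones of RUNX2 and RUNX3, and in 13.1% of all 35116 windows of that length. Both held a pair of ACCACA with 2 bases between them, an arrangement found on either strand in 4 of the 35116 windows. The stretches around that pair share 18 bases, and they are shown for comparison in 30 bases each, 5' to 3' on the gene's strand, with the motifs in capitals.
RUNX2, chr6:45328338-45328367, plus strand: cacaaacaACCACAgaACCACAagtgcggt
RUNX3, chr1:24965120-24965149, minus strand: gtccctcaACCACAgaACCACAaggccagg
The pair lay 17 and 25 bases after the RUNX2 start and 131 and 123 bases before the RUNX3 start, counted to the first base of each motif. The 139 bases of the RUNX3 window upstream of its annotated exons, chr1:24965122-24965260, carry both motifs near their 3' end.
RUNX3 distal: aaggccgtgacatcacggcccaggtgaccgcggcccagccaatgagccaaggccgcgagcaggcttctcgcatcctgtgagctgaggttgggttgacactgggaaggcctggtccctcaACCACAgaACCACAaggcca
The RUNX1 window in the table, chr21:34888650-34888949, covers 1 start, and its 250 upstream bases are shown because RUNX1 had the largest fall among the RUNX genes. They hold no such letters.
RUNX1, chr21:34888700-34888949, minus strand: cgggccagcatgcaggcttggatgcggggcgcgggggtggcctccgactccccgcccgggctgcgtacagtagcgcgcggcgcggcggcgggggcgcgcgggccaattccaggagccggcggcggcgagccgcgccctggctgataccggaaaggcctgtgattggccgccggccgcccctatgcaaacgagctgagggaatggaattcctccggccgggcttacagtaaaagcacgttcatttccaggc
A match of letters is a description of these windows and not a measured binding site. The RUNX1 window lies inside the annotated gene and is not set against the distal windows of RUNX2 and RUNX3. The other window of RUNX2 and that of RUNX3 held no motif either. Any part of the motifs in the fall with shRNA 1 was not tested.

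CBFB (ENSG00000067955, GRCh38 chromosome 16, 67029116 to 67101058, plus strand), the partner that all RUNX proteins share, changed least among the members that fell with shRNA 1. Control libraries were at 109, 130, 124 and 128 CPM, shRNA 1 libraries at 88.0, 104, 99.3 and 97.9 CPM, and shRNA 2 libraries at 131, 129, 125 and 125 CPM. The shRNA 1 libraries lay below the control range, and control 1 was the control library nearest to them. CBFB fell by 0.34 with shRNA 1 (SE 0.07, edgeR adjusted p = 0.000208), to 79.2% of control (95% interval 71.8 to 87.4). With shRNA 2 the difference was 0.05 (SE 0.07, 95% interval -0.09 to 0.20, edgeR adjusted p = 0.54), and shRNA 2 stood above shRNA 1 by 0.39 (SE 0.07, edgeR adjusted p = 3.43e-05).

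CBFA2T2 (ENSG00000078699, GRCh38 chromosome 20, 33490075 to 33650036, plus strand), the corepressor also known as MTGR1, was the member that rose. It was at 72.3, 66.9, 65.8 and 70 CPM in the control, 106, 123, 100 and 89.7 CPM with shRNA 1, and 75.8, 76.0, 76.6 and 74.4 CPM with shRNA 2. The shRNA 1 libraries were scattered but all above the other groups, and the shRNA 2 libraries stood close together just above the control range. CBFA2T2 rose by 0.61 with shRNA 1 (SE 0.08, edgeR adjusted p = 6.09e-07), to 152% of control (95% interval 136 to 171), where 28.6% of all tested genes were called higher. With shRNA 2 the difference of 0.14 (SE 0.08, 95% interval -0.025 to 0.30) did not pass in the fit of all groups (edgeR adjusted p = 0.152), and passed when the fit held those 2 groups alone (edgeR adjusted p = 0.0425). CBFA2T2 was lower with shRNA 2 than with shRNA 1, a log2 difference of -0.47 (SE 0.08, edgeR adjusted p = 1.89e-05).

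CBFA2T3 (ENSG00000129993, GRCh38 chromosome 16, 88874858 to 88977204, minus strand), the corepressor ETO2 that works with GATA and TAL1 factors in blood progenitors, was the lowest member. Its levels were 17.5, 11.4, 14.6 and 14.1 CPM in the control, 11.5, 12, 12.8 and 12.8 CPM with shRNA 1, and 13.1, 13.1, 15.8 and 15 CPM with shRNA 2. Both shRNA groups overlapped the control, whose own libraries spanned the widest range. The log2 difference was -0.23 with shRNA 1 (SE 0.13, 95% interval -0.51 to 0.043, edgeR adjusted p = 0.14). With shRNA 2 it was -0.017 (SE 0.13, 95% interval -0.29 to 0.26, edgeR adjusted p = 0.927). Without control 2, the lowest control library, the shRNA 1 difference was -0.33 and passed (edgeR adjusted p = 0.0457). Between the shRNAs the groups did not overlap, and the difference of 0.22 did not pass (SE 0.13, edgeR adjusted p = 0.166).

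In the direct comparison of the shRNAs, RUNX1, RUNX1T1, RUNX2, RUNX3 and CBFB were higher and CBFA2T2 lower with shRNA 2, which is 6 of 7 called where 58.7% of all tested genes were. All 7 had groups that did not overlap in that comparison, as 52.7% of all tested genes did.

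**Figure D2:**
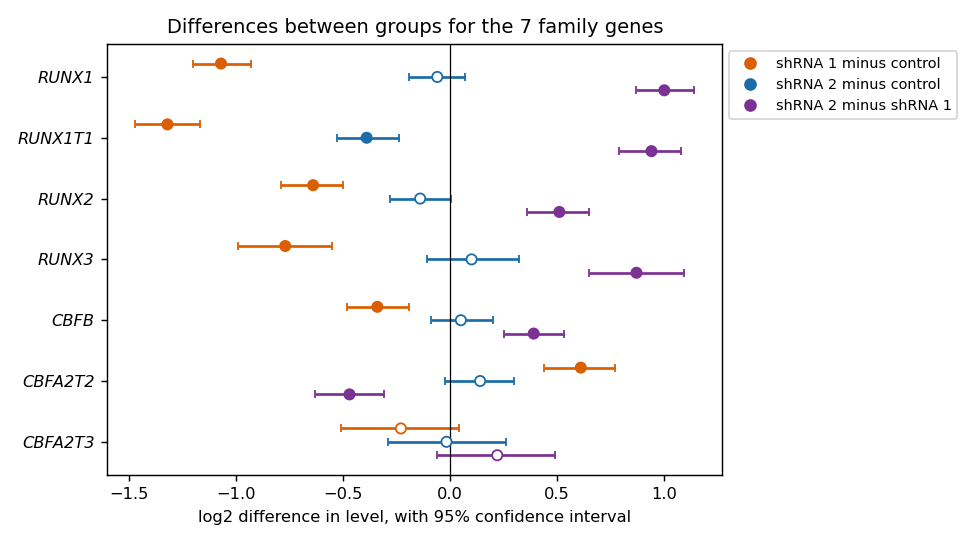
Log2 difference in level (horizontal axis) with its 95% confidence interval for each family gene, for shRNA 1 minus control, shRNA 2 minus control and shRNA 2 minus shRNA 1; filled points passed edgeR's test at an adjusted p below 0.05 and open points did not. With shRNA 1 the intervals of 5 genes lie below 0 and that of CBFA2T2 above it, and with shRNA 2 only the interval of RUNX1T1 lies wholly off 0.

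Levels of different genes were compared per kilobase of exon, using the exons of all transcripts in GENCODE 29, which may differ from the annotation used for counting. On that scale CBFB and RUNX1 led in the control, at 29.7 ± 2.26 and 24.6 ± 1.14 CPM per kb (SD, n = 4), without overlap (26.5 to 31.6 against 23.4 to 26.1). RUNX1T1 at 13.7 ± 0.898 and RUNX3 at 13.2 ± 0.858 CPM per kb did not differ beyond their spread on these lengths. RUNX2 followed at 8.37 ± 0.322, CBFA2T2 at 7.27 ± 0.317 and CBFA2T3 at 2.41 ± 0.421 CPM per kb, with no overlap among them. With shRNA 1, CBFB was at 23.5 ± 1.60, RUNX1 at 11.8 ± 0.816 and CBFA2T2 at 11.1 ± 1.47 CPM per kb, the latter pair within their spread on these lengths. RUNX3 came next at 7.71 ± 1.59, its highest library above the lowest of CBFA2T2, then RUNX1T1 at 5.47 ± 0.518 and RUNX2 at 5.35 ± 0.0917, again within their spread, and CBFA2T3 at 2.06 ± 0.105 CPM per kb. By its mean, CBFA2T2 was number 6 of the family in the control and number 3 with shRNA 1, and RUNX1T1 was number 3 and number 5. With shRNA 2 the order was CBFB at 30.9 ± 0.742, RUNX1 at 23.6 ± 1.25, RUNX3 at 14.1 ± 0.816, RUNX1T1 at 10.5 ± 0.382, CBFA2T2 at 8.01 ± 0.0977, RUNX2 at 7.60 ± 0.428 and CBFA2T3 at 2.39 ± 0.228 CPM per kb, of which CBFA2T2 and RUNX2 overlapped. With the shorter exon lengths of the basic transcript set RUNX1 led CBFB in the control, at 46.6 ± 2.15 against 38.8 ± 2.95 CPM per kb, and with shRNA 2, at 44.6 ± 2.36 against 40.3 ± 0.967. RUNX1T1 at 19.2 ± 1.26 CPM per kb then stood above RUNX3 at 13.7 ± 0.889 in the control without overlap (17.4 to 20.2 against 12.8 to 14.9). On these lengths the shRNA 2 means of RUNX1T1 and RUNX3 were 14.7 and 14.6, and those of RUNX2 and CBFA2T2 were 8.77 and 8.10, both in the reverse of the order above and with overlapping libraries. The order of these pairs depends on the lengths used. With shRNA 1 the order of the means was the same on the basic lengths, but the gaps were not. RUNX1 at 22.3 ± 1.54 CPM per kb then stood above CBFA2T2 at 11.2 ± 1.48 without overlap (21.4 to 24.6 against 9.6 to 13.1). RUNX1T1 at 7.68 ± 0.727 likewise stood above RUNX2 at 6.18 ± 0.106 (6.83 to 8.45 against 6.03 to 6.28).

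**Figure D3:**
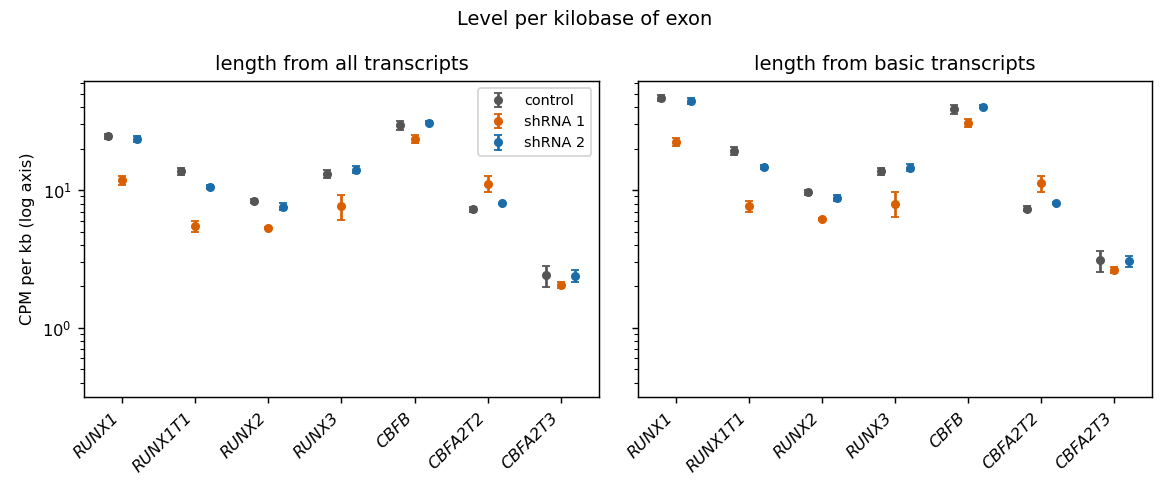
CPM per kilobase of exon (log axis) of each family gene, as the mean with 1 SD over the 4 libraries of each group, with lengths from all transcripts on the left and from the basic set on the right. CBFB and RUNX1 are the highest and CBFA2T3 the lowest in the control in both panels, and RUNX1 and CBFB change places between the panels in the control and with shRNA 2.

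Ratios of read counts within a library do not depend on scaling, and 6 ratios between members were compared over 3 pairs of groups, 18 comparisons in all. With 4 libraries against 4 the smallest two-sided exact permutation p is 0.0286, and 10 of the 18 reached it, which after Benjamini-Hochberg adjustment is 0.0514. No ratio passed the adjusted threshold, and the values are given as measured. RUNX1T1 reads per RUNX1 read were 0.519, 0.495, 0.443 and 0.478 in the control, 0.403, 0.397, 0.443 and 0.375 with shRNA 1, and 0.433, 0.394, 0.359 and 0.362 with shRNA 2. The shRNA 2 libraries lay below all controls, a log2 difference of -0.32 (exact permutation p = 0.0286, adjusted 0.0514), and those of shRNA 1 touched the control range, with -0.26 (exact permutation p = 0.0571, adjusted 0.0935). RUNX1T1 reads per read of its paralogue CBFA2T2 were 2.61, 2.85, 2.55 and 2.78 in the control, 1.97, 1.86, 1.81 and 1.86 with shRNA 2, and 0.768, 0.578, 0.780 and 0.734 with shRNA 1. These 3 ranges were fully apart, with log2 differences from control of -1.92 with shRNA 1 and -0.53 with shRNA 2 (exact permutation p = 0.0286 for each, adjusted 0.0514). CBFB reads per RUNX1 read went from 0.300, 0.339, 0.327 and 0.314 in the control to 0.435, 0.580, 0.563 and 0.557 with shRNA 1 (log2 difference 0.73, exact permutation p = 0.0286, adjusted 0.0514). The ratios of RUNX2 to RUNX1 and of CBFA2T3 to CBFA2T2 were likewise apart from the control with shRNA 1, by 0.42 and -0.81, and overlapped it with shRNA 2. RUNX3 per RUNX1 overlapped the control with both.

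**Figure D4:**
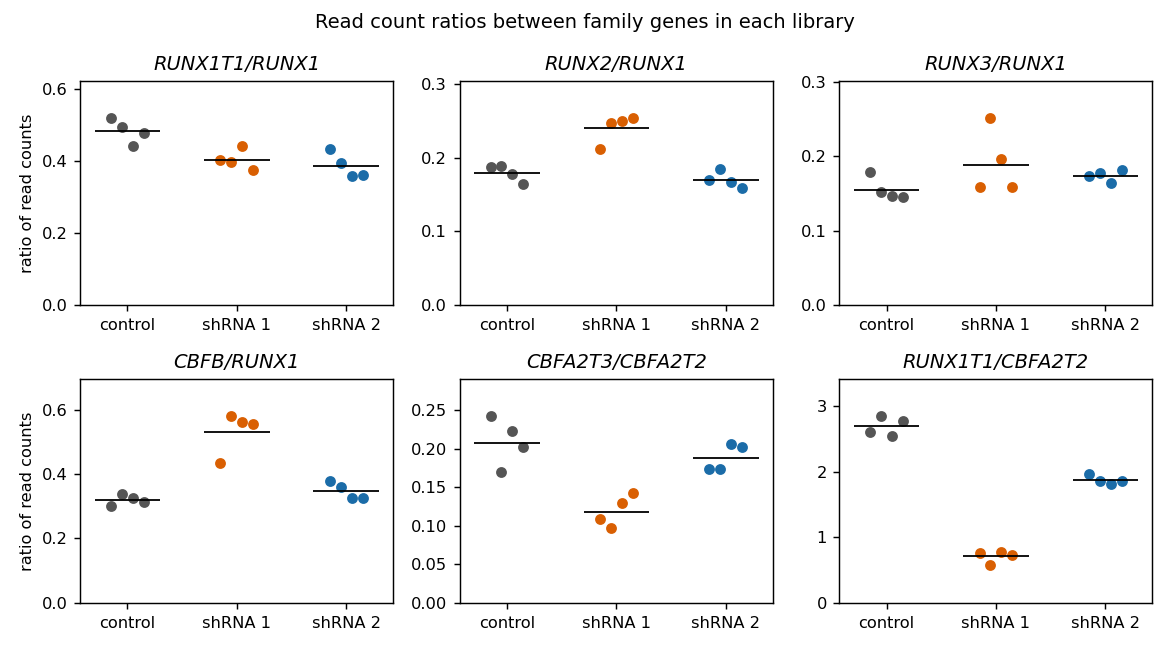
Ratio of read counts of 2 family genes within each library (vertical axes, from 0) for the control, shRNA 1 and shRNA 2 groups; dots are libraries in replicate order and lines are geometric means. RUNX1T1 per CBFA2T2 drops from 2.55 to 2.85 in the control to 1.81 to 1.97 with shRNA 2 and 0.578 to 0.780 with shRNA 1.

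Of 13 annotated genes in the count table that overlap a member, 2 share exon bases with it. Of the 13, 11 had too few reads to be tested, 6 of them at 0 and none above a group mean of 0.643 CPM. Without a stated strand setting for the counting, reads where exons of opposite strands coincide cannot be told apart by gene. AF181450.1 shares 66 exon bases with RUNX1T1 and AC092384.2 shares 501 with CBFA2T3, both on the other strand, and both averaged below 1 CPM in every group. SUPT3H, a SAGA complex subunit whose gene overlaps RUNX2 on the other strand without shared exon bases, was at 6.59 ± 1.15 CPM (SD, n = 4) in the control, 4.89 ± 0.676 with shRNA 1 and 2.32 ± 0.440 with shRNA 2. It fell by 1.51 with shRNA 2 (edgeR adjusted p = 4.48e-06), where RUNX2 was not called. With shRNA 1 its difference of -0.44 did not pass (edgeR adjusted p = 0.0759), and it was -0.52 without control 3 (edgeR adjusted p = 0.0492). AC092384.3, on the strand of CBFA2T3 without shared exon bases, was at 0.921 ± 0.302, 0.332 ± 0.223 and 0.715 ± 0.252 CPM. Its shRNA 1 difference of -1.49 passed narrowly (edgeR adjusted p = 0.0499), and 15 of 17 alternatives lost that call (edgeR adjusted p = 0.0502 to 0.12). The 2 that kept it were DESeq2 and leaving out control 4, so leaving out any other single library lost it. Its shRNA 2 difference was -0.34 (edgeR adjusted p = 0.665).

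Genes whose log2 CPM followed a member most closely over the 12 libraries were found among 10918 other genes of mean CPM of at least 5. The libraries fall into 3 groups, so these correlations are descriptions. RUNX1 was followed by POLE, the catalytic subunit of DNA polymerase epsilon (Pearson r = 0.994 over 12 libraries), the aminopeptidase ERAP1 (r = 0.994) and the mitochondrial adenylate kinase AK4 (r = 0.993). POLE was at 731 ± 18.6 CPM in the control, 439 ± 32.9 with shRNA 1 and 737 ± 28.5 with shRNA 2, so its shRNA 1 group was the low one, as for RUNX1. RUNX1T1 was followed by the oligosaccharyltransferase subunit STT3B (r = 0.992), KLHL18 (r = 0.991) and the mitochondrial carrier SLC25A23 (r = 0.990), and STT3B stood at 771 ± 9.09, 364 ± 32.4 and 619 ± 23.4 CPM in those groups. RUNX2 was followed by MAP3K21 (r = 0.984), the shared cytokine receptor chain IL2RG (r = 0.984) and NPHP4 (r = 0.984), and RUNX3 by LRP4 (r = 0.977), KCNK6 (r = 0.975) and RAB21 (r = 0.968). CBFB was followed by the splicing regulator TRA2B (r = 0.964), ABCB10 (r = 0.953) and the RNA helicase EIF4A2 (r = 0.950). CBFA2T2 was followed by BOD1L1 (r = 0.980), the clock repressor NR1D1 (r = 0.973) and KIAA1109 (r = 0.968), and NR1D1 was at 17.7 ± 2.00, 54.0 ± 9.75 and 21.5 ± 2.37 CPM. The closest to CBFA2T3 were ZDHHC16 (r = 0.871), MT-ATP8 (r = 0.852) and ILVBL (r = 0.832). Among the members, RUNX1, RUNX1T1 and RUNX2 followed each other with r from 0.958 to 0.961, and CBFA2T2 ran opposite to RUNX1 with r = -0.903 over the same 12 libraries.

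Genes linked to the fusion protein were taken from 5 lists, 107 genes in all, of which 88 were tested. The lists were written from general knowledge, with earlier results of these data known. Of 14 tested binding partners of the fusion, 4 rose, 7 fell and 3 did not pass with shRNA 1. The same counts for shRNA 2 were 1, 8 and 5. That is 78.6% and 64.3% called, against 57.3% and 50.0% of all tested genes, and the median log2 changes were -0.38 and -0.20. TCF3, the E protein E2A, had 398 ± 18.6 CPM (SD, n = 4) in the control and fell to 254 ± 5.0 and 312 ± 6.90 with shRNA 1 and shRNA 2 (edgeR adjusted p = 1.31e-09 and 1.85e-05). FLI1, an ETS factor found beside RUNX1 in blood cells, fell from 195 ± 2.71 CPM to 140 ± 4.58 and 153 ± 6.19 (edgeR adjusted p = 1.88e-07 and 1.71e-05). TAL1, the bHLH partner of E proteins, fell by 1.81 and 1.59 on the log2 scale. LYL1, its relative, fell by 0.27 with shRNA 1 (edgeR adjusted p = 0.00187) and differed by -0.15 with shRNA 2 (edgeR adjusted p = 0.0768), which passed without shRNA 1 replicate 1 or 4 (edgeR adjusted p = 0.0446 and 0.0494) and in a fit of those 2 groups (edgeR adjusted p = 0.0238). SPI1, the myeloid factor PU.1, rose from 150 ± 4.88 to 221 ± 47.4 CPM with shRNA 1 (edgeR adjusted p = 0.00064). With shRNA 2 it was at 179 ± 15.1 CPM (edgeR adjusted p = 0.0844). That difference passed without shRNA 1 replicate 1 or 4 (edgeR adjusted p = 0.00417 and 0.0264) and with a replicate block (edgeR adjusted p = 0.039). It also passed without the filter, in a fit of those 2 groups, and with DESeq2 (edgeR adjusted p = 0.00216 and 0.000385, DESeq2 adjusted p = 0.0497). GFI1, a repressor of myeloid genes, had 449 ± 16.7 CPM in the control and fell to 302 ± 8.98 and 405 ± 19.2 (edgeR adjusted p = 1.54e-08 and 0.035). The second of these calls was lost without control 3 or 4, without shRNA 2 replicate 1 or 4, without the filter and with upper-quartile scaling (edgeR adjusted p = 0.0632 to 0.138).

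The corepressors and coactivators through which RUNX and ETO proteins act went both ways. Of 27 tested, 5 rose, 15 fell and 7 did not pass with shRNA 1. The counts for shRNA 2 were 9, 6 and 12. The shares called were 74.1% and 55.6%, where all tested genes had 57.3% and 50.0%, and the medians were -0.17 and 0.08. HDAC3, the deacetylase of the NCoR complex, showed log2 changes of -0.39 and -0.73 (edgeR adjusted p = 0.00333 and 6.3e-06). TBL1XR1, another subunit of that complex, fell from 345 ± 14.3 CPM (SD, n = 4) to 140 ± 18 and 179 ± 6.0. The scaffold NCOR1 rose by 0.25 and 0.19 (edgeR adjusted p = 0.0105 and 0.0457), and its shRNA 2 call was lost without control 1, 3 or 4, shRNA 1 replicate 3, or shRNA 2 replicate 1, 2 or 3, and without the filter (edgeR adjusted p = 0.052 to 0.156). PRMT1, an arginine methyltransferase that binds the fusion, fell from 231 ± 13.6 to 67.4 ± 8.34 and 119 ± 4.92 CPM. CREBBP, an acetyltransferase, rose by 0.76 and 0.59, and SMAD3, a TGF-beta effector, by 0.38 and 0.74. DNMT1, the maintenance DNA methyltransferase, moved in opposite directions, by -0.55 under shRNA 1 and 0.25 under shRNA 2 (edgeR adjusted p = 9.96e-08 and 0.00193). KMT2A, a histone methyltransferase, was at 408 ± 27.8, 409 ± 60.1 and 360 ± 8.61 CPM and was called with neither shRNA (edgeR adjusted p = 0.984 and 0.0704). Its shRNA 2 difference passed without control 3 or shRNA 1 replicate 1 or 4. It also passed without the filter, with a replicate block and in a fit of those 2 groups (edgeR adjusted p = 0.00509 to 0.0425 over these settings).

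Genes reported as repressed by the fusion went both ways. Of 19 tested, 7 rose, 6 fell and 6 did not pass with shRNA 1. The counts for shRNA 2 were 7, 3 and 9. The shares called were 68.4% and 52.6%, beside 57.3% and 50.0% of all tested genes, the second close to that background, and the medians were 0.01 and 0.34. RASSF2, a Ras-association protein, rose from 5.50 ± 0.876 CPM (SD, n = 4) to 44.3 ± 3.51 and 30.5 ± 2.27. LYZ, lysozyme, had log2 changes of 2.87 and 3.28 from a control level below 1 CPM. It went from 0.639 ± 0.233 CPM to 4.85 ± 1.96 and 6.41 ± 0.95. ITGAM, the integrin CD11b, was also low, at 2.59 ± 1.08, 6.39 ± 0.305 and 13.8 ± 1.17 CPM, with log2 changes of 1.33 and 2.44. MPO, the granule enzyme myeloperoxidase, fell from 16234 ± 866 CPM to 7212 ± 1124 and 9913 ± 1111 (edgeR adjusted p = 1.06e-09 and 2.41e-06). LAT2, an adaptor of myeloid signalling, showed changes of -0.62 and -0.50 (edgeR adjusted p = 0.00588 and 0.0274), and its shRNA 2 call was lost without control 1 or 2 or shRNA 2 replicate 2, 3 or 4, and without the filter (edgeR adjusted p = 0.0559 to 0.109). NF1, a Ras inhibitor, was at 203 ± 2.79, 200 ± 24.1 and 189 ± 10.0 CPM and not called. RUNX3 and GFI1, which fell with shRNA 1, and SPI1, which rose with it, stand on this list as well.

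Among genes reported as high in t(8;21) leukaemia none was called higher with shRNA 1. Of 19 tested, 14 fell and 5 did not pass with shRNA 1. The list had, with shRNA 2, 3 higher, 8 lower and 8 uncalled. The shares called were 73.7% and 57.9%, against 57.3% and 50.0% of all tested genes. Of all tested genes, 28.7% were called lower with shRNA 1 and 25.3% with shRNA 2. The medians were -0.57 and -0.33, and 8 genes were lower with both, against 12.8% of all tested genes. CD34, the stem cell antigen, fell from 261 ± 39.8 CPM (SD, n = 4) to 51.8 ± 5.48 and 178 ± 11.8. CCND2, cyclin D2, fell from 133 ± 15 to 61.8 ± 7.43 and 72.5 ± 5.19 CPM, and the phosphatase UBASH3B from 320 ± 17.8 to 240 ± 40.4 and 202 ± 11.7 CPM. TERT, the catalytic subunit of telomerase, fell by 1.85 and 1.64, and the prostaglandin synthase HPGDS by 0.73 and 0.88 from 4.31 ± 0.566 CPM. The shRNA 1 call of HPGDS was lost without control 3 or shRNA 1 replicate 2 (edgeR adjusted p = 0.0545 and 0.0546). JUP, the junction protein plakoglobin, fell from 404 ± 44.0 to 153 ± 14.8 CPM with shRNA 1 and was at 374 ± 10.6 CPM with shRNA 2 (edgeR adjusted p = 5.38e-13 and 0.242). KIT, the stem cell factor receptor, fell by 0.32 with shRNA 1 (edgeR adjusted p = 0.00053) and differed by 0.0052 under shRNA 2 (edgeR adjusted p = 0.958).

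Textbook RUNX1 targets in blood cells went both ways. Of 17 tested, 3 rose, 6 fell and 8 did not pass with shRNA 1. The counts for shRNA 2 were 4, 4 and 9. That is 52.9% and 47.1% called against 57.3% and 50.0% of all tested genes, with medians of 0.01 and -0.02. The kinase CDK6 fell by 0.31 with shRNA 1 (edgeR adjusted p = 0.001) and differed by -0.022 under shRNA 2 (edgeR adjusted p = 0.826). ANKRD26, which RUNX1 is known to repress in platelet precursors, rose from 20.3 ± 1.59 CPM (SD, n = 4) to 28.0 ± 6.19 and 26.6 ± 0.406 (edgeR adjusted p = 0.00268 and 0.0121). MPO, SPI1 and GFI1, described above, belong to this list too.

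**Figure D5:**
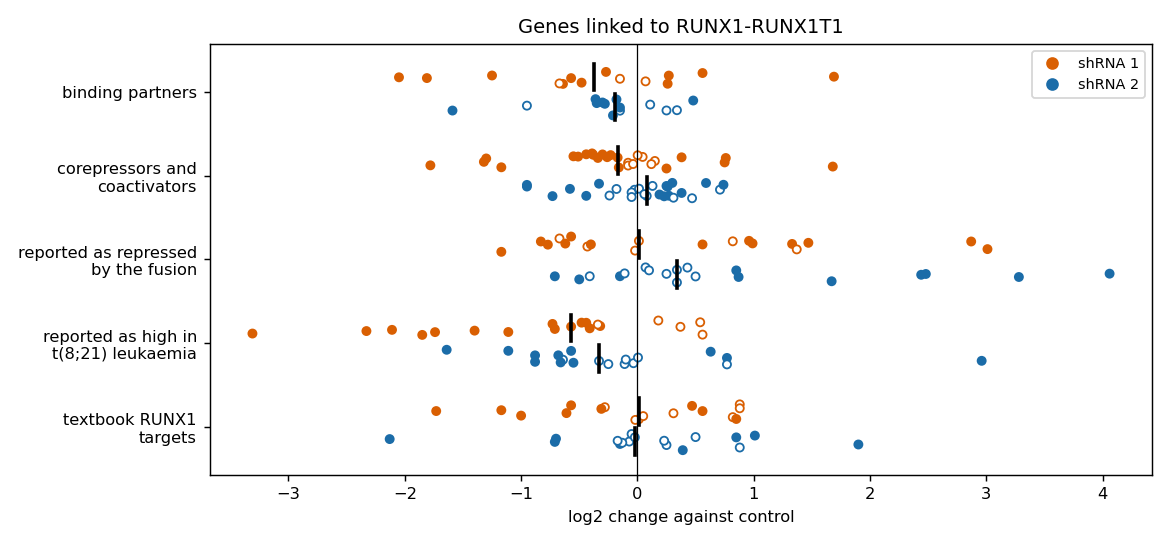
Log2 change against control (horizontal axis) of each tested gene of the 5 lists for shRNA 1 and shRNA 2; filled points passed edgeR's test at an adjusted p below 0.05, open points did not, and black bars are list medians. Genes reported as high in t(8;21) leukaemia have the lowest median with each shRNA, -0.57 and -0.33.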

How the data were processed

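RNA-seq was measured in 12 Kasumi-1 libraries, 4 per group. The authors deposited raw read counts, whole numbers for each Ensembl gene ID. The tools named, without roles, in the submitters' processing notes are STAR 2.7.3a, cutadapt 2.6 and DESeq2, with the build hg19. The counting program, its annotation and its strand setting: not given in the sources used here. Poly(A) site counts of the same study carry hg19 positions and no gene names and were not analysed here. Of 48162 IDs, 45342 had a symbol (GENCODE 29, then a table of current symbols).

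Counts were tested with edgeR 4.0.16 (quasi-likelihood F test, R 4.3.3): all 12 libraries in 1 fit, a term per group, TMM scaling, filterByExpr, robust spread, 9 residual degrees of freedom, two-sided. Totals ran from 12236937 to 20388437 counts; without molecular identifiers, precision from depth covers counting error only. Ratios used counts plus 0.5 and exact permutation. The fit was tested on simulated data. Alternatives were other scalings, no filter, DESeq2 1.42.0, a replicate block, 2 groups per fit and leaving out each library; basic transcript lengths were added after seeing the data.

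The members and lists were chosen with earlier results of these data known. Named genes were all members, FIP1L1, per list the 4 highest by CPM and the 3 highest and 3 lowest called with both shRNAs, the 3 genes most like each member, and genes overlapping a member; of the untested overlapping genes those with shared exon bases are named, and 1 list gene is not reported here.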

Additional observations from a re-analysis of the deposited data

Results flagged for a closer look

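For 6 of the 7 members the effects of the shRNAs differed when tested directly. The shRNA 2 minus shRNA 1 log2 difference was 1.00 for RUNX1, 0.94 for RUNX1T1, 0.87 for RUNX3, 0.51 for RUNX2, 0.39 for CBFB and -0.47 for CBFA2T2, each past edgeR's adjusted threshold, and every library of shRNA 2 lay beyond every library of shRNA 1 in these genes. FIP1L1 itself was higher with shRNA 2 by 0.35.

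In the shRNA 1 group, replicate 1 held 202 CPM of RUNX1 where the other 3 libraries held 176 to 179, a gap of 0.884 of the group's range. The same library stood apart in RUNX2 per RUNX1 and in CBFB per RUNX1, with gaps of 0.858 and 0.862. It did not stand apart in RUNX1T1 per RUNX1 or RUNX3 per RUNX1. Without it the RUNX1 change with shRNA 1 was -1.12. The 3 gaps given came from 42 groups of 4 libraries looked at, and chance flags about 1 group in 20. They are not independent, since both ratios are taken per RUNX1 read.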

How the results depend on the processing

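Over the 18 alternatives no called difference of a member lost its call or its sign, and 3 of the 21 member results changed call or sign, all of them not called in the reported fit. CBFA2T2 with shRNA 2 passed when the fit held only those 2 groups (0.14, edgeR adjusted p = 0.0425), which brought the members called higher with shRNA 2 to 1. CBFA2T3 with shRNA 1 ranged from -0.33 to -0.13 over the libraries left out. CBFA2T3 with shRNA 2 ranged from -0.11 to 0.09 over them. With upper-quartile scaling it was 0.0062, where the reported fit had -0.017. That scaling moved the median of all genes by 0.022 with shRNA 2 and by 0.097 with shRNA 1. The cause of the sign change was not tested. Of 87 results for named list genes, 22 changed call or sign in some setting. Sign changes near 0 were KMT2A with shRNA 1 (-0.013 without a filter and -0.0048 with the replicate block, -0.08 to 0.08 over libraries left out), NF1 with shRNA 1 (0.08 with upper-quartile scaling, -0.08 to 0.04) and CDK6 with shRNA 2 (0.00073 with upper-quartile scaling, -0.05 to 0.0085). Others arose only from leaving out a library: KIT with shRNA 2 (-0.02 to 0.025), and between the shRNAs TERT (-0.08 to 0.45) and ANKRD26 (-0.19 to 0.07). Same-numbered libraries correlated by -0.037 to 0.089 in their deviations from group means, and 5 of 12 had their own number as best match. All were below the 0.1 set for calling them paired, so they were not treated as pairs. A weak shared batch could be missed in this way. With the replicate block 9123 genes were called with shRNA 1 against 9076, and no member call changed. An exact permutation of the ratios within numbers cannot go below p = 0.125, and one of 3 against 4 libraries not below p = 0.0571, so neither tests the ratios. Depth limits CBFA2T3 most, at 133 to 288 counts a library.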

Other observations

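Within the list of genes reported as high in t(8;21) leukaemia, 4 more were picked after their values were seen. POU4F1, a neuronal homeobox factor that marks this leukaemia, was at 32.5 ± 4.52 CPM (SD, n = 4) in the control and 36.7 ± 2.19 with shRNA 1, and rose to 55.5 ± 4.08 with shRNA 2 (edgeR adjusted p = 4.33e-07). Its shRNA 1 difference of 0.18 did not pass (edgeR adjusted p = 0.125), and passed without control 3 (0.25, edgeR adjusted p = 0.0331) and with upper-quartile scaling (0.27, edgeR adjusted p = 0.0175). CDKN1A, the cell cycle inhibitor p21, was at 4.42 ± 0.570 CPM in the control and 5.62 ± 2.35 with shRNA 1, and rose to 34.4 ± 8.24 with shRNA 2 (edgeR adjusted p = 1.98e-08). BCL2, the survival protein, fell from 141 ± 4.71 CPM to 94.8 ± 11.1 and 65.2 ± 1.98, and was lower with shRNA 2 than with shRNA 1 (log2 difference -0.54, edgeR adjusted p = 1.23e-06), the reverse of the order seen for RUNX1. BAALC, a marker of immature leukaemia cells, fell from 21.5 ± 4.59 CPM to 6.38 ± 1.11 and 14.5 ± 1.03, with shRNA 2 between the other groups as for RUNX1T1.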
